A study of Mus musculus with 12 samples.

Results

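The nCounter Mouse Immunology panel, which counts RNA molecules through barcoded probe pairs without amplification, held 4 genes for receptors that bind chemoattractants without the usual signal or that bind chemerin: Ccrl2, Cmklr1, Ccrl1 and Ccbp2. They were taken by name from the 561 genes of the table, and all 4 were among the 445 genes with enough counts to be tested. Current mouse nomenclature calls Ccrl1 Ackr4 and Ccbp2 Ackr2, and the names of the table are kept here. Every mouse carried the exon 16 knockout of hemophilia A, a loss of clotting factor VIII, on a C57BL6 background. The groups were spleen of ampicillin-treated mice, spleen of control mice, mesenteric lymph nodes of ampicillin-treated mice and mesenteric lymph nodes of control mice, with 3 samples each from 12 mice. Ampicillin, a broad-spectrum antibiotic, was given by gavage when the mice were 3 weeks old, and tissues of treated and untreated mice were taken when they were 6 weeks old. No group is described as gavaged without ampicillin, so gavage and ampicillin cannot be told apart.

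Atypical chemokine receptors bind chemokines but do not couple to G proteins in the way of classical chemokine receptors. They take up, scavenge or present their ligands and so shape local gradients. The Ccbp2 protein scavenges inflammatory CC chemokines, and in mice it is known from lymphatic endothelium and from innate-like B cells. The Ccrl1 protein scavenges Ccl19, Ccl21 and Ccl25 and is known from the lymphatic endothelium that roofs the lymph node. Cmklr1 encodes the signalling receptor of chemerin, found on macrophages, plasmacytoid dendritic cells and natural killer cells. The Ccrl2 protein binds chemerin without signalling and presents it to cells that carry Cmklr1. It is induced in myeloid cells and endothelium by bacterial and inflammatory stimuli.

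Totals ran from 396950 to 738489 counts per sample. Member levels are given as counts divided by a housekeeping factor (scaled counts), and changes as log2 changes with a standard error (SE) that rests on a spread shared by the 4 groups. The largest count of a member was 165 and the smallest 20, where counting error alone amounts to 7.78% and 22.4%. In control mice the summed scaled counts of 7 T cell markers were 11344 to 12631 in nodes and 4914 to 5891 in spleen. Those of 8 B cell markers were 13201 to 14896 in control nodes and 25878 to 27376 in control spleen. Ampicillin spleen 1 stood apart from ampicillin spleens 2 and 3, with a chi-square per degree of freedom of 35.2 and 53.9, where counting noise alone gives about 1. This ratio was 9.39 between spleens 2 and 3 of that group and 3.11 to 12.8 for other pairs within a group, so results in ampicillin spleen are also given without single spleens. These are bulk tissues, in which fewer cells of a type and less RNA per cell cannot be told apart.

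Because Ccrl2 gave the largest ampicillin change of the members, its promoter sequence is shown. The 250 bases upstream of the first of its 3 listed start sites, from RefSeq on GRCm38.p6 at chr9:111057519-111057768 (minus strand), read as follows, with capitals marking a match to GGACTTTCC, the letters of a classical kappaB site without its first G.
Ccrl2 promoter: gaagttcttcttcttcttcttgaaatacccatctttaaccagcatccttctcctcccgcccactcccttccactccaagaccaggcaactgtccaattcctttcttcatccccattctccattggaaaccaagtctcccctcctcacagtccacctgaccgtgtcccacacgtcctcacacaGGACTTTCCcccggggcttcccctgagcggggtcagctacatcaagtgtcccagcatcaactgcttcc
The match began 68 bases before the start site (position -68). These 9 letters were chosen after the sequence had been read, and on either strand they occur in 0.283% of 32851 such windows of 250 bases. None of the windows of Cmklr1, Ccrl1 and Ccbp2 held them. A looser kappaB pattern, with its middle letters free, occurred upstream of all 4 members and in 45.8% of all windows, and in Ccrl2 its matches overlapped or lay beside the capitals. Of 6 further motifs searched on both strands, AGATAA (9.99% of all windows), known from erythroid transcription factors, lay upstream of the other Ccrl2 start sites and TATAAA (12.4%) upstream of Ccrl1. GAGGAAGT (2.44%), TGACGTNA (2.52%), TGANTCA (6.75%) and TTCNNNGAA (7.02%) gave no match in any window of the members.

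In the spleen, Ccrl2 rose with ampicillin and the other 3 members did not pass the test. The scaled count of Ccrl2 was 65.1, 168.1 and 131.2 in ampicillin spleens 1, 2 and 3, against 42.9, 49.1 and 41.9 in control spleens 1, 2 and 3. The lowest ampicillin spleen exceeded the highest control, with spleen 1 much nearer to the controls than spleens 2 and 3. The mean was 121.5 ± 52.2 in ampicillin spleen and 44.6 ± 3.89 in control spleen (SD, n = 3 each). The log2 change was 1.43 (SE 0.28), or 2.69-fold, and it passed with edgeR's quasi-likelihood test (adjusted p = 0.017). In this comparison 16.9% of the 445 tested genes were called, 2.25% as higher and 14.6% as lower. Ranges did not overlap for 34.6% of the 445 genes, and 2.92% of the 445 lay higher in this way. The change of Ccrl2 ranked 6 of 445 from the top. With TMM scaling, which called 4.94% of genes, it was 1.63 (adjusted p = 0.025). The spread of the ampicillin spleens, 43.0% of their mean, was well above the counting error of 9.05% at their mean count. That of the control spleens, 8.71%, was below theirs of 14.1%.

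**Figure D1:**
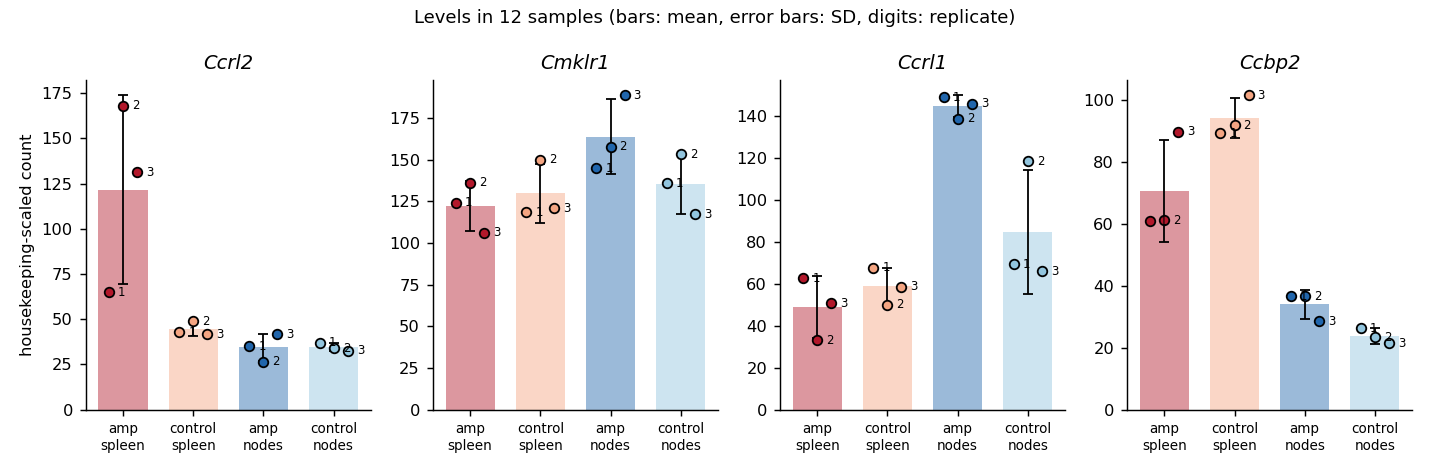
Housekeeping-scaled counts (vertical axes) of Ccrl2, Cmklr1, Ccrl1 and Ccbp2 in ampicillin spleen, control spleen, ampicillin lymph nodes and control lymph nodes; bars give the mean, error bars the SD over 3 samples, points the samples and digits their replicate number. Ccrl2 is high in ampicillin spleens, at 65.1 to 168.1, against 41.9 to 49.1 in control spleens, and Ccrl1 is at 138.6 to 148.8 in ampicillin nodes, against 65.8 to 118.3 in control nodes.

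The Ccrl2 call was lost when either of 2 libraries was left out. Without ampicillin spleen 2 its log2 change was 1.14 (adjusted p = 0.067, edgeR), and without control spleen 1 it was 1.40 (adjusted p = 0.071). It passed in the other 10 fits that left out 1 sample. Without ampicillin spleens 2 and 3, an alternative added after the data were seen, the change was 0.54 (adjusted p = 0.35, edgeR). In a fit of the 6 spleens alone it kept its size, 1.43, but did not pass (adjusted p = 0.094, edgeR). Nor did it pass with the methods' t-test, the test that the submitters name (adjusted p = 0.31).

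Markers of other cell types also changed in these spleens. Of the erythroid markers on the panel, Tfrc, Tal1 and Abcb10 rose in the ampicillin spleen, with overlapping ranges, and Tfrc and Abcb10 also with TMM scaling. Icam4, which reached the minimum for testing only through ampicillin spleens 2 and 3, had levels of 10.3, 281.4 and 189.3 in ampicillin spleens 1, 2 and 3, against 15.6 to 42.7 in control spleens. The summed level of these 4 genes was 810, 7491 and 5671 scaled counts in ampicillin spleens 1, 2 and 3, and 746 to 1568 in control spleens, so the 2 spleens highest in Ccrl2 were also highest in erythroid genes. The defining erythroid genes Gata1 and Klf1 were not analysed here. In ampicillin spleen 1, Ccrl2 lay above all controls while the erythroid sum lay within their range. The 8 neutrophil markers summed to 6675, 13984 and 22208 in ampicillin spleens 1, 2 and 3 and to 10546 to 19242 in control spleens. None of the 7 neutrophil and 8 monocyte and macrophage markers that were tested passed with housekeeping scaling, and with TMM scaling 1 did, Cd14. The monocyte and macrophage sum was 5665, 5220 and 4312 in ampicillin spleens 1, 2 and 3, against 4918 to 5447 in control spleens. Endothelial markers, 5 in all with Sele under 20 in every spleen, summed to 4089 to 4628 in ampicillin spleen and to 4438 to 4546 in control spleen, and 1 of the 4 tested, Cd34, rose. Of 7 T cell markers 5 fell, or 2 with TMM scaling, where 14.6% of all genes fell with housekeeping scaling. Their summed level was 2984 to 4836 in ampicillin spleen and 4914 to 5891 in control spleen. Of 8 B cell markers 3 fell, of 4 dendritic cell markers 2 and of 6 natural killer cell markers 1, and 0 of each list with TMM scaling. The B cell sum was 20726 to 24479 in ampicillin spleen and 25878 to 27376 in control spleen. The dendritic cell sum was 410 to 460 in ampicillin spleen and 525 to 640 in control spleen. The 2 dendritic cell markers that fell were Itgax and Xcr1. Cd209g of the same list, singled out after its values were seen, lay the other way and was not called. It stood at 35.7 to 44.8 in ampicillin spleen and 18.5 to 31.8 in control spleen. The natural killer cell sum was 1010 to 1078 in ampicillin spleen and 1159 to 1612 in control spleen. Mast cell, basophil and eosinophil markers, of which 0 of 2 passed, summed to 233 to 246 in ampicillin spleen and 265 to 353 in control spleen. The sums of these 5 cell types, given with housekeeping scaling only, lay lower in ampicillin spleen without overlap. Ranges did not overlap for 34.6% of the 445 tested genes, of which 2.92% of the 445 lay higher. The median log2 change of all tested genes was -0.17 with this scaling and 0.00063 with TMM scaling. The part of any of these cell types in the result of Ccrl2 or the values of the other members was not tested.

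**Figure D2:**
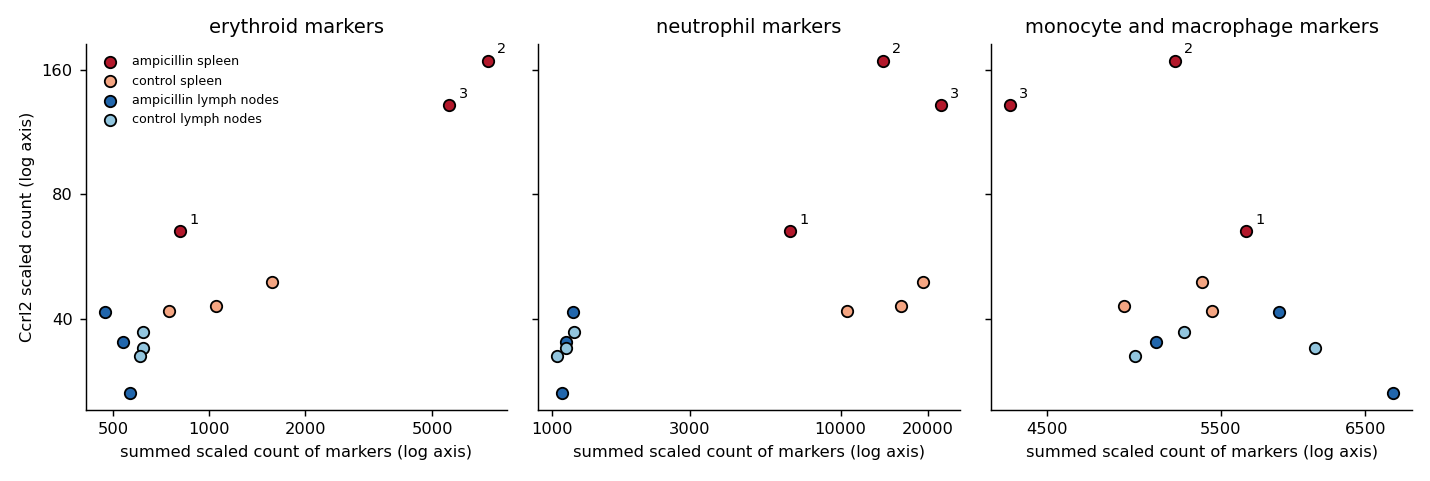
Scaled count of Ccrl2 (vertical, log axis) against the summed scaled counts of erythroid, neutrophil, and monocyte and macrophage markers (horizontal, log axes) in the 12 samples; digits name the ampicillin spleens. Ampicillin spleens 2 and 3, at 168.1 and 131.2 for Ccrl2, have erythroid sums of 7491 and 5671, whereas ampicillin spleen 1, at 65.1, has 810.

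Cmklr1, the signalling partner of Ccrl2 in the chemerin system, had scaled counts of 124.1, 136.3 and 106.3 in ampicillin spleens 1, 2 and 3, against 118.5, 150.0 and 120.8 in control spleens. The ranges overlapped in part. Its log2 change was -0.09 (SE 0.16, adjusted p = 0.71, edgeR), and with TMM scaling it was 0.09. The ratio of the Ccrl2 to the Cmklr1 count within a sample, which no scaling touches, was 0.524, 1.23 and 1.23 in ampicillin spleens 1, 2 and 3 and 0.362, 0.327 and 0.347 in control spleens. By this ratio, too, the groups did not overlap. The probes differ in efficiency, so the ratio compares samples and says nothing of which gene is more abundant. Chemerin itself (Rarres2) and its further receptor gene Gpr1 were not analysed here.

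Both scavenger genes had lower means in the ampicillin spleen and did not pass. Ccbp2 had scaled counts of 60.8, 61.1 and 89.7 in ampicillin spleens 1, 2 and 3, against 89.1, 91.8 and 101.3 in control spleens. The ranges met at ampicillin spleen 3 and control spleen 1. Its log2 change was -0.40 (SE 0.18, adjusted p = 0.12, edgeR), and -0.22 with TMM scaling (adjusted p = 0.49). Ccrl1 had scaled counts of 62.5, 33.1 and 50.7 in ampicillin spleens 1, 2 and 3, against 67.6, 50.0 and 58.5 in control spleens. Its groups overlapped, with a log2 change of -0.25 (SE 0.26, adjusted p = 0.53). Over all tested genes the median log2 change in spleen was -0.17 with housekeeping scaling and 0.00063 with TMM scaling.

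In the mesenteric lymph nodes no member passed, while the scavenger gene Ccrl1 lay higher in every ampicillin node. Ccrl1 stood at 148.8, 138.6 and 145.6 scaled counts in ampicillin nodes 1, 2 and 3, against 69.3, 118.3 and 65.8 in control nodes. The ampicillin nodes were close together and all above the controls, of which node 2 stood high. The means were 144.3 ± 5.23 in ampicillin nodes and 84.5 ± 29.4 in control nodes (SD, n = 3 each). The log2 change was 0.79 (SE 0.24), or 1.73-fold, and did not pass (adjusted p = 0.095, edgeR). In this comparison 0.449% of the 445 genes were called. Ranges did not overlap for 31.0% of the 445 genes, and 10.3% of the 445 lay higher in this way. Ccrl1 ranked 5 of 445 from the top. It passed with TMM scaling (adjusted p = 0.046, 7.19% of genes called) and with DESeq2 on housekeeping size factors (adjusted p = 0.049). Without control node 2, the high control, the log2 change was 1.09 (adjusted p = 0.028, edgeR), and without ampicillin spleen 1 it was 0.79 (adjusted p = 0.044). These were the only 2 of 12 fits without 1 sample that passed. In the others the change went down to 0.63 and the adjusted p up to 0.35 (edgeR). Of 9 alternatives that did not leave out single samples, 3 passed.

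**Figure D3:**
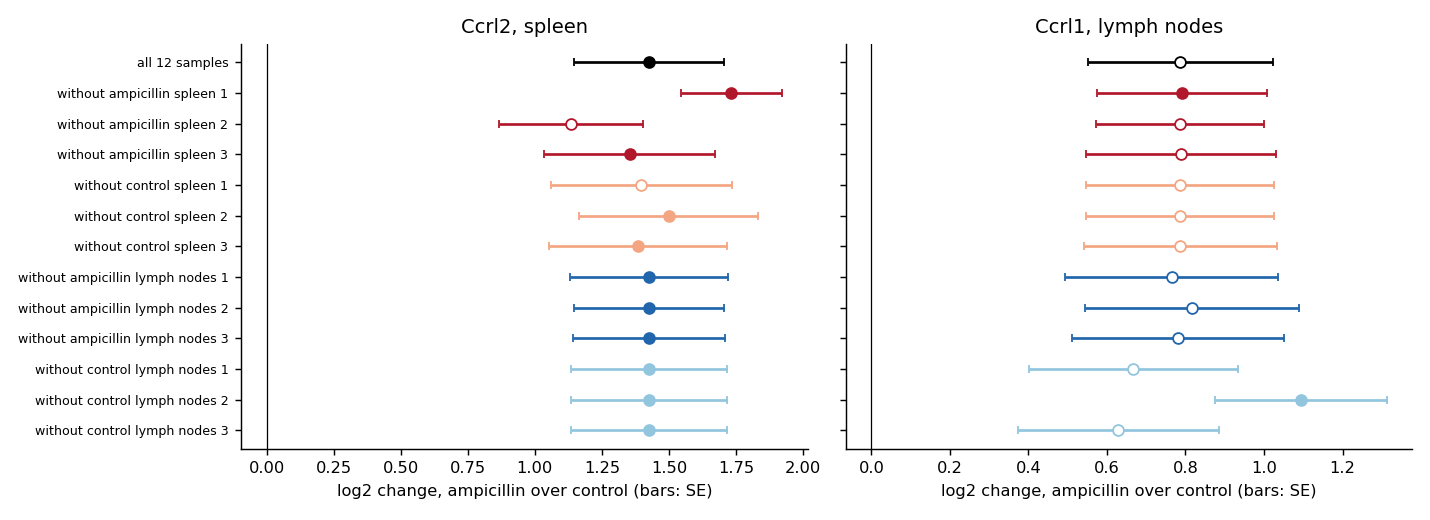
Log2 change of ampicillin over control (horizontal axis, bars SE) for Ccrl2 in spleen and Ccrl1 in lymph nodes, with all 12 samples and with each sample left out in turn; filled points passed at an adjusted p under 0.05. Ccrl2 stays between 1.14 and 1.73 and loses its call in 2 fits, and Ccrl1 stays between 0.63 and 1.09 and gains a call in 2 fits.

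Ccbp2 showed the same order in the nodes at lower counts. It stood at 36.5, 36.7 and 28.6 scaled counts in ampicillin nodes 1, 2 and 3, against 26.4, 23.4 and 21.4 in control nodes. The ranges did not overlap, but these values came from raw counts of 28, 36 and 22 in ampicillin nodes and 27, 20 and 27 in control nodes, which did overlap before scaling. A count of 20 has an exact 95% Poisson interval of 12.2 to 30.9, which covers counting error only. The log2 change was 0.52 (SE 0.22) and did not pass (adjusted p = 0.21, edgeR; 0.15 with TMM scaling). The ratio of the Ccrl1 to the Ccbp2 count was 4.07, 3.78 and 5.09 in ampicillin nodes 1, 2 and 3 and 2.63, 5.05 and 3.07 in control nodes. This ratio overlapped between the groups.

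The chemerin pair did not differ detectably in the nodes at this depth. Cmklr1 stood at 144.8, 157.9 and 188.6 scaled counts in ampicillin nodes 1, 2 and 3, against 135.7, 153.5 and 117.4 in control nodes, with a log2 change of 0.28 (SE 0.16, adjusted p = 0.32, edgeR). Ccrl2 stood at 35.2, 26.5 and 41.6 in ampicillin nodes, against 37.1, 34.0 and 32.5 in control nodes, with a log2 change of -0.02 (SE 0.33, adjusted p = 0.98) that took the other sign with TMM scaling (0.04). Both pairs of ranges overlapped.

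Beside Ccrl1, the 5 stromal markers on the panel summed to 10121 to 11487 scaled counts in ampicillin nodes and to 7030 to 10191 in control nodes. Of these 5, 1 rose, the follicular chemokine gene Cxcl13, where 0.449% of the 445 tested genes were called. With TMM scaling, which called 7.19% of genes, Cxcl12 rose as well. The 5 endothelial markers summed to 4015 to 4713 in ampicillin nodes and to 3997 to 4305 in control nodes, with Sele under 20 scaled counts in every node. Markers specific to lymphatic endothelium were not analysed here. The T cell sum was 9870 to 11001 in ampicillin nodes and 11344 to 12631 in control nodes. The erythroid sum, with Icam4 under 20 in every node, was 469 to 562 and 604 to 620. Both lay lower without overlap, and the other sums overlapped. Ranges did not overlap for 31.0% of the 445 genes. Of these T cell and erythroid markers 0 passed, and with TMM scaling Cd5 fell. The part of any of these cell types in the Ccrl1 values was not tested.

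To ask whether the tissues differed in their ampicillin change, the spleen's change was subtracted from that of the nodes. No member passed. The difference was -1.44 (SE 0.43) for Ccrl2, 1.03 (SE 0.35) for Ccrl1 and 0.93 (SE 0.29) for Ccbp2 on the log2 scale (adjusted p = 0.31 each, edgeR), and 0.37 (SE 0.22, adjusted p = 0.54) for Cmklr1. The unadjusted p was 0.0055 for Ccrl2, 0.011 for Ccrl1 and 0.0062 for Ccbp2. Of all 445 genes 0.0% were called and 11.0% reached p under 0.05 before adjustment. DESeq2 called 0 as well. Without ampicillin spleen 1 the difference passed for Ccrl2 (-1.75, adjusted p = 0.0028) and Ccrl1 (1.25, adjusted p = 0.037), but not for Ccbp2 (adjusted p = 0.092). In that fit 59 of the 445 genes were called.

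**Figure D4:**
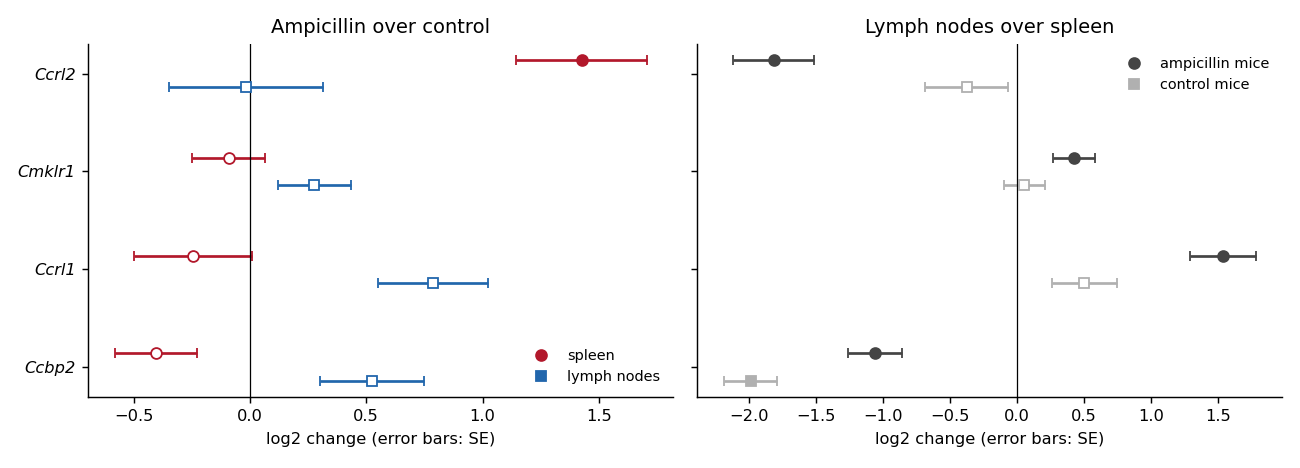
Log2 changes with SE (horizontal axes) of the 4 genes for ampicillin over control in spleen and lymph nodes and for lymph nodes over spleen in ampicillin and control mice; filled symbols passed at an adjusted p under 0.05. Ccrl2 passes in spleen at 1.43, and Ccbp2 is lower in nodes at -1.06 in ampicillin mice and -1.98 in control mice.

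Between the tissues of control mice, Ccbp2 was the only member that passed. It stood at 26.4, 23.4 and 21.4 scaled counts in nodes, against 89.1, 91.8 and 101.3 in spleen. The ranges lay far apart in control mice. The log2 change of nodes over spleen was -1.98 (SE 0.20, adjusted p = 1.8e-06, edgeR), so that control spleen was 3.96-fold above control nodes. In ampicillin mice it was -1.06 (SE 0.20, adjusted p = 0.00041), with 28.6 to 36.7 scaled counts in nodes and 60.8 to 89.7 in spleen. These were contrasts in which 64.0% of genes were called in control mice and 63.1% in ampicillin mice, so a call in them is common. Ccbp2 ranked 21 of 445 from the bottom in control mice. Of 8 B cell markers 8 were lower in nodes of control mice too, where 34.4% of all genes were called lower. Camp, among others, was under 20 scaled counts in every node and reached the minimum only through the spleen. Sums follow for the other lists. Without overlap, the neutrophil, natural killer cell, erythroid, endothelial, stromal, and mast cell, basophil and eosinophil sums were lower in control nodes than in spleen. The T cell and dendritic cell sums were higher. Of all tested genes 75.3% did not overlap. The monocyte and macrophage sums overlapped, at 4985 to 6137 in control nodes and 4918 to 5447 in control spleen. Marco and Msr1 of that list were called higher, as was Il1r2 of the neutrophil list. Also called higher were Pecam1 and Cd34 of the endothelial list and Ccl19 and Fn1 of the stromal list, against their sums. Vcam1 was the endothelial marker called lower. Itgax of the dendritic cell list was called lower, against its sum. The part of these cells in the Ccbp2 difference was not tested. The call of Ccbp2 held in each of the 12 fits without 1 sample, in both kinds of mice.

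Ccrl1 ran the other way. Its nodes over spleen change was 1.54 (SE 0.25, adjusted p = 0.00012, edgeR) in ampicillin mice, with 138.6 to 148.8 scaled counts in nodes and 33.1 to 62.5 in spleen. In control mice it was 0.50 (SE 0.25) and did not pass (adjusted p = 0.087), and control node 3, at 65.8, lay within the spleen range of 50.0 to 67.6. The Ccrl1 to Ccbp2 count ratio was 3.78 to 5.09 in ampicillin nodes and 0.542 to 1.03 in ampicillin spleens. It was 2.63 to 5.05 in control nodes and 0.545 to 0.759 in control spleens. The ratio separated the tissues in both kinds of mice, but so did Ccbp2 alone. It therefore cannot show a tissue difference of Ccrl1 apart from that of Ccbp2.

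Ccrl2 was lower in nodes than in spleen of ampicillin mice (log2 change -1.81, SE 0.30, adjusted p = 0.00017, edgeR). In control mice the change was -0.37 (SE 0.31, adjusted p = 0.31), although the control nodes, at 32.5 to 37.1 scaled counts, all lay below the control spleens, at 41.9 to 49.1. Such separation held for 75.3% of tested genes in control mice. Cmklr1 was higher in nodes of ampicillin mice by 0.43 (SE 0.16, adjusted p = 0.029), at 144.8 to 188.6 in nodes and 106.3 to 136.3 in spleen. That call was lost without ampicillin spleen 3 (adjusted p = 0.12) or ampicillin node 3 (adjusted p = 0.13). In control mice its change was 0.06 (SE 0.16, adjusted p = 0.77).

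By level, Ccrl2 stood in the order ampicillin spleen, control spleen, control nodes and ampicillin nodes, and only the last pair of neighbours overlapped. Cmklr1 stood in the order ampicillin nodes, control nodes, control spleen and ampicillin spleen, with overlap between all neighbours. Ccrl1 followed ampicillin nodes, control nodes, control spleen and ampicillin spleen, where only the first neighbours did not overlap. Ccbp2 followed control spleen, ampicillin spleen, ampicillin nodes and control nodes, with overlap between the spleens only.

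Of 11 chemokines known to bind the Ccbp2 protein 7 were tested. Ccl8, Ccl11 and Ccl12 were under 20 scaled counts in every spleen, so no count or median of the list is given there. Of the other chemokines only Ccl5, of T and natural killer cells, was called in spleen. It fell, where 14.6% of all tested genes fell. Its mean was 1154 ± 72.4 scaled counts in ampicillin spleen and 1484 ± 241 in control spleen (SD, n = 3 each, log2 change -0.36, adjusted p = 0.044, edgeR). With TMM scaling none passed. In the nodes 0 of 7 passed, at a median of 0.18, against -0.05 for all tested genes. Ccl22, a chemokine of dendritic cells that attracts regulatory T cells, had the smallest p there, at -0.36 (SE 0.11, adjusted p = 0.094). Ccl2, a monocyte chemoattractant, was at 0.44 (SE 0.21, adjusted p = 0.25) and the eosinophil chemoattractant Ccl11 at 0.32 (SE 0.20, adjusted p = 0.37).

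Between tissues, Ccl8, Ccl11 and Ccl12 were under 20 scaled counts in every spleen and reached the minimum for testing only through the nodes, so no count or median is given for the list. Ccl22 stood at 1755 ± 137 scaled counts in control nodes and 96.8 ± 11.7 in control spleen (SD, n = 3 each). Ccl5 stood at 4399 ± 291 in control nodes and 1484 ± 241 in control spleen. The log2 change of nodes over spleen was 4.18 (SE 0.13) for Ccl22 and 1.57 (SE 0.11) for Ccl5 in control mice, and both passed. In ampicillin mice it was 4.02 (SE 0.13) for Ccl22 and 1.93 (SE 0.11) for Ccl5, and both passed again. Calls between tissues were common, at 64.0% of tested genes in control mice and 63.1% in ampicillin mice. Ccl11 stood at 115.8 ± 13.8 in control nodes. Of the ligands of the Ccrl1 protein only Ccl19, which guides T cells and dendritic cells, was tested. Ccl19 was 1.69-fold higher in control nodes than in control spleen (adjusted p = 0.00072, edgeR). Its ampicillin changes were 0.19 in spleen (SE 0.15, adjusted p = 0.39) and 0.15 in nodes (SE 0.15, adjusted p = 0.61).

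Of 14 tested signalling chemokine receptors, 3 fell and 0 rose in the ampicillin spleen, at a median log2 change of -0.22, where 14.6% of all tested genes fell and their median was -0.17. The 14 include a receptor under 20 scaled counts in every spleen and another under 20 in every node. The receptors that fell were Cxcr3 (-0.57, adjusted p = 0.024) and Cxcr6 (-0.64, adjusted p = 0.025), receptors of effector T cells, and Xcr1 (-0.75, adjusted p = 0.028), a receptor of cross-presenting dendritic cells. None of them passed with TMM scaling. In the nodes 0 of 14 passed, at a median of -0.14, where 0.449% of the 445 tested genes were called. The smallest p belonged to Ccr2, the monocyte receptor of Ccl2 (-0.33, SE 0.14), Ccr9, the gut-homing receptor of Ccl25 (-0.35, SE 0.14, adjusted p = 0.19 for both), and Cxcr4, the receptor of Cxcl12 (0.57, SE 0.24, adjusted p = 0.20).

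Ccrl2 is known as an inducible gene of myeloid cells, and 9 other genes induced by bacterial lipopolysaccharide in such cells were tested. In the ampicillin spleen 0 of 9 rose and 1 fell, at a median log2 change of -0.09, where 2.25% of all tested genes rose and 14.6% fell. The one that fell was the cytokine gene Tnf, which had a log2 change of -0.67 (adjusted p = 0.046, edgeR). Cd14, a co-receptor for lipopolysaccharide singled out after its values were seen, averaged 169.1 ± 30.7 scaled counts in ampicillin spleen and 126.1 ± 6.84 in control spleen (SD, n = 3 each). Its log2 change of 0.42 (SE 0.17) did not pass (adjusted p = 0.095). With TMM scaling the list gave the reverse, 1 higher, Cd14, and 0 lower, where 4.94% of all tested genes were called. In the nodes 0 of 9 passed with housekeeping scaling, where 0.449% of all tested genes were called. With TMM scaling 2 fell, Nfkbiz and Socs3, regulators of NF-kB and cytokine signalling, where 7.19% of all tested genes were called.

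**Figure D5:**
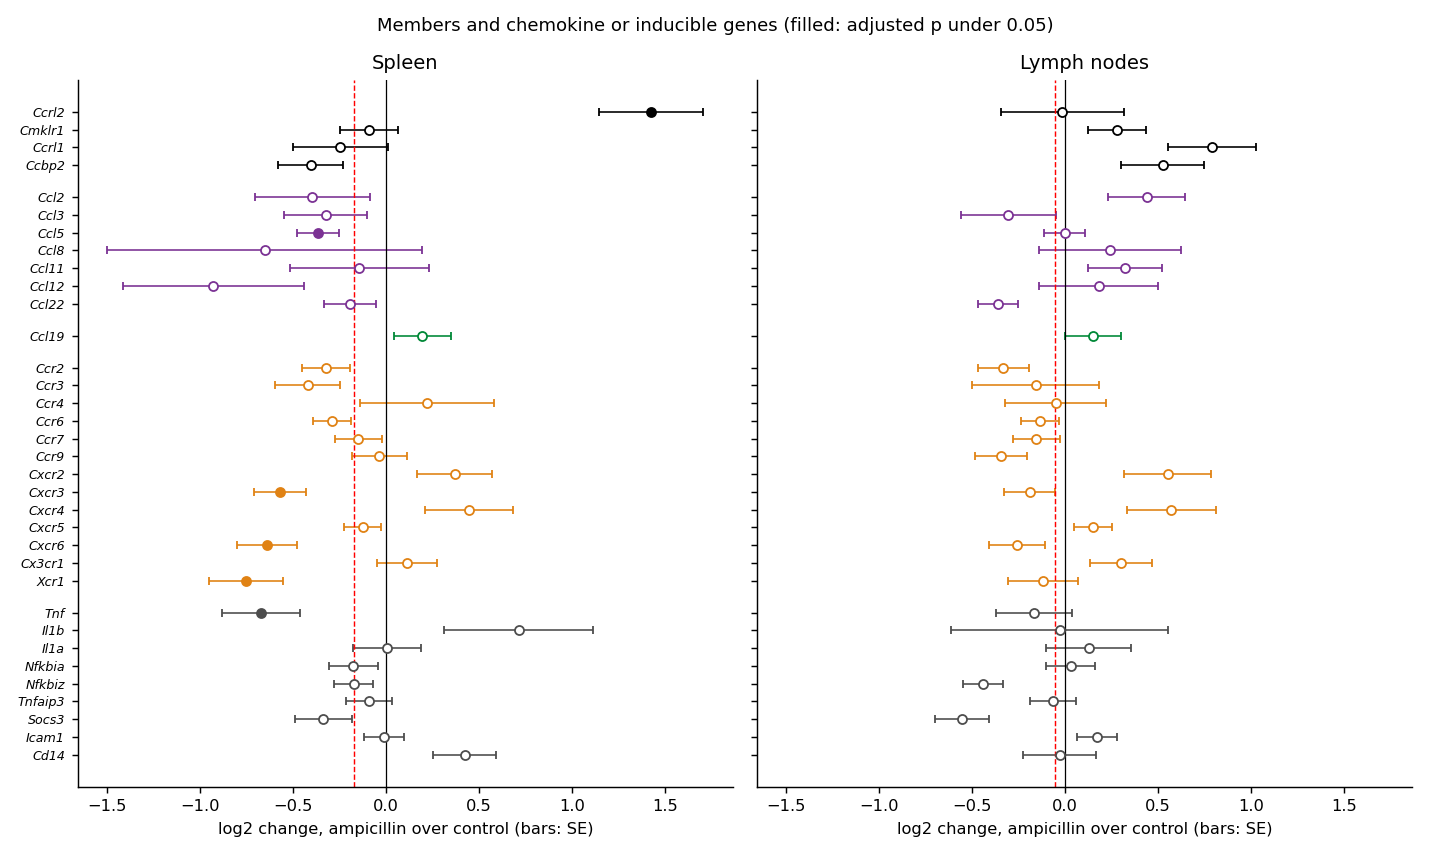
Log2 changes with SE of ampicillin over control (horizontal axes) in spleen and lymph nodes for the 4 receptor genes (black), ligands of the Ccbp2 protein (purple) and of the Ccrl1 protein (green), 13 of the 14 tested signalling chemokine receptors (orange) and lipopolysaccharide-inducible genes (grey); filled points passed at an adjusted p under 0.05 and the dashed red line is the median of all tested genes. In spleen Ccrl2 is the only filled point above 0, at 1.43, and the median line lies at -0.17.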

How the data were processed

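The deposited table held whole-number counts of the NanoString nCounter Mouse Immunology panel for 561 genes in 12 samples. The submitters' design text, per the labels, names normalization to 14 housekeeping genes in nSolver, but the deposited counts did not carry it: their housekeeping geometric means differed between samples, so they were treated as unnormalized. A table that includes control probes was left aside, since none of its 12 column names matches a label, and no background was subtracted. Counts were scaled so that the geometric mean of 14 housekeeping genes, named from knowledge of the panel, was equal in all samples.

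Tests used the 445 of 547 other genes whose mean scaled count reached 20, with the quasi-likelihood test in edgeR 4.0.16 (R 4.3.3), 4 group means over 12 samples and 8 residual degrees of freedom. Benjamini-Hochberg adjustment ran over the 445 genes of each contrast, and an adjusted p under 0.05 is a call. The test was checked on simulated data. Alternatives were TMM scaling, DESeq2 1.42.0, limma 3.58.1 on log2(scaled count + 1), no filter, robust empirical Bayes, fits of the compared groups alone, the methods' t-test, a replicate block and leaving out samples.

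The members and lists were chosen with earlier results of these data known. Named genes were the members, the 3 genes nearest to each by the root mean square difference of centred log2 profiles, and, of each pathway list, the genes that passed or else the 3 of smallest p; marker genes that passed are named too. The signalling receptors' tissue contrast and 1 receptor's values are not reported here. Names were matched to the RefSeq gene table of assembly GRCm38.p6. Probe positions are not given, because the files name no build. The labels number 12 separate mice, and shared replicate numbers were not used as pairs.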

Additional observations from a re-analysis of the deposited data

How the results depend on the processing

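Of the log2 changes of the 4 receptor genes in 5 contrasts, 378 of the alternative values kept direction and side of the threshold, 11 lost a call, 9 gained one and 10 changed sign. Ccrl2 in spleen lost its call in a fit of the 6 spleens (1.43), with the methods' t-test (1.32) and without ampicillin spleens 2 and 3 (0.54), and ran from 1.14 to 1.73 with 1 sample left out. Ccrl1 in nodes gained one with TMM scaling (0.85) and with DESeq2 on housekeeping (0.78) and own size factors (0.86), and ran from 0.63 to 1.09 with 1 sample left out. In ampicillin mice, nodes over spleen lost the call with the methods' t-test for Ccrl2 (-1.71), Ccrl1 (1.59) and Cmklr1 (0.42), and for Cmklr1 in a fit of those groups alone (0.43; adjusted p = 0.0503, edgeR; 0.32 to 0.51 with 1 sample left out). In control mice Ccrl2 gained one with that test (-0.36), and Ccrl1 ran from 0.20 to 0.66 with 1 sample left out, passing without control node 3. The tissue difference of the effect ran from -1.75 to -1.15 for Ccrl2 and from 0.84 to 1.34 for Ccrl1, each passing only without ampicillin spleen 1. Signs changed only for values that did not pass: Cmklr1 in spleen with TMM scaling (0.085) and DESeq2's own size factors (0.066) and between -0.17 and 0.025 with 1 sample left out, Ccrl1 in spleen without ampicillin spleens 2 and 3 (0.086), Ccrl2 in nodes with TMM scaling (0.039) and between -0.17 and 0.16, and Cmklr1 in control nodes over spleen between -0.038 and 0.17. The cause was not tested. DESeq2 gave no adjusted p for Ccrl2 and Ccbp2 in the ampicillin comparisons.

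The 75 genes called in spleen, 10 higher and 65 lower, became 22 with TMM scaling (11 higher and 11 lower), 44 with limma, 41 with the replicate block, 6 without ampicillin spleens 2 and 3, 0 in a fit of the 6 spleens and 0 to 159 with 1 sample left out. At the thresholds the submitters name, a fold over 1.25 and an unadjusted p under 0.05, the methods' t-test gave 52 in spleen, without Ccrl2, and 35 in nodes, with Ccbp2; after Benjamini-Hochberg adjustment it gave 0 and 2. The 2 genes called in nodes became 32 with TMM scaling (18 higher and 14 lower), 22 and 44 with DESeq2, 15 in a fit of the nodes alone, 0 with the replicate block and 0 to 32 with 1 sample left out. The 0 called for the difference became 59 without ampicillin spleen 1, and the 281 called between tissues in ampicillin mice became 126 with the methods' t-test. The labels link samples with the same number by that number only. Their deviations from the group means correlated between -0.38 and 0.24 across genes, which cannot show whether they shared anything else. With the replicate block Ccrl2 in spleen kept its call (1.39, adjusted p = 0.034, edgeR).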

Other observations

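Among the 445 tested genes, those whose profile over the 12 samples lay nearest to each receptor gene were found by the root mean square difference of log2 values centred on each gene's mean. The 12 samples share 2 tissues and 2 treatments. Nearest to Ccrl2 were Il1rl1, the interleukin 33 receptor gene (0.39 log2 units), Cd24a (0.46) and the phosphatase gene Phlpp2 (0.48), against a median of 0.86 for all genes. Il1rl1 had scaled counts of 34.2, 94.2 and 125.4 in ampicillin spleens 1, 2 and 3, against 26.2 to 54.5 in control spleens, and its change did not pass (1.20, SE 0.40, adjusted p = 0.057, edgeR). Cd24a, a gene of immature B and erythroid cells, rose (1.26, SE 0.40, adjusted p = 0.046), and was measured at 1016, 5479 and 4196 in ampicillin spleens 1, 2 and 3, against 1219 to 1695 in control spleens. For Phlpp2 the values were 192.6, 306.9 and 289.0 in ampicillin spleens 1, 2 and 3, against 189.0 to 229.8 in control spleens (0.33, SE 0.17, adjusted p = 0.19).

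Nearest to Ccrl1 were Il22ra2, which encodes the soluble inhibitor of interleukin 22 (0.24 log2 units), the ectoenzyme gene Bst1 (0.34) and the death receptor gene Fas (0.35), against a median of 0.70. Il22ra2 stood at 383.6, 316.8 and 390.1 scaled counts in ampicillin nodes 1, 2 and 3, against 174.8, 314.0 and 190.3 in control nodes. Nearest to Ccbp2 were Ncam1 (0.29), the complement receptor gene Cr2 of B cells and follicular dendritic cells (0.30) and the Fc receptor chain gene Fcer1g (0.31), against a median of 0.82. Cr2 stood at 395.4 to 515.0 in ampicillin nodes and 960.2 to 1272 in ampicillin spleen, and at 399.7 to 490.2 in control nodes and 1273 to 1369 in control spleen. Nearest to Cmklr1 were the interferon-induced genes Ifi35 and Ifitm1 (0.16 each) and App (0.16), against a median of 0.38. Cmklr1 itself varied by 0.22 log2 units about its mean.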
